A study of Homo sapiens with 6 samples.

Results

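Open chromatin was described at the loci of 6 kinases that carry the signal of the pre-B receptor and of its T-cell counterpart: LYN, BLK and LCK of the Src family, SYK and ZAP70, and the PI3K subunit gene PIK3CD. Each locus was a fixed hg19 window, and the 6 windows were chosen by position, not by signal. The windows held 484 peaks over 12 peak lists, which joined into 66 regions out of 130872 in the whole series. ATAC-seq, in which Tn5 transposase puts adapters into accessible DNA, was done on 6 samples of human B-cell acute lymphoblastic leukemia lines. The lines RS411 (RS4;11 in the growth protocol), SEM and RCH (taken to be RCH-ACV) were each profiled with a non-targeted control (NT) and with NSD2 knocked down (sh2), giving 1 sample per line and condition. NSD2 is a histone H3 lysine 36 methyltransferase, and its level was not measured by these lists. The sample labels give neither a genotype nor a culture time for the lines. Each sample came with 2 peak lists, read as 2 libraries, and nothing says whether they came from separate cultures. A spread between them may therefore be technical, and within a line no test of NT against sh2 was possible.

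In B-cell precursors the pre-B receptor is phosphorylated by the Src-family kinases LYN and BLK, and SYK then docks on it and passes the signal on. PI3K delta, whose catalytic subunit PIK3CD encodes, adds a survival signal through lipid phosphorylation. LCK and ZAP70 do the corresponding work below the T-cell receptor, and both are also known to be expressed in part of B-cell leukemias.

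Sequence under the hg19 peaks was not used here, so the promoters of the RefSeq table (GRCh38.p14) are shown in its place, as the regulatory DNA nearest to the question. They were not placed on the hg19 peaks, and their coordinates are not comparable with those of the peaks. The table held 11 promoters for SYK, LCK, ZAP70 and PIK3CD and none for BLK or LYN, so the latter were not searched. The 250 bases before each start were searched on both strands for 5 short motifs. Those were the E-boxes CAGCTG and CACCTG, the ETS core GGAAGT, the RUNX core TGTGGT and the IKZF core TGGGAA, and TGGGAA and GGAAGT can overlap. Of 35116 promoters in the table, 14.0%, 17.5%, 19.5%, 11.0% and 20.8% held them in this order. For each gene the promoter with the most matches is printed, for ZAP70 the first of 2 with equal numbers, and for LCK both, since LCK is known for a distal and a proximal promoter. All lie on the plus strand, are written 5′ to 3′, and have motif matches in capitals.
SYK promoter 2, chr9:90801569-90801818: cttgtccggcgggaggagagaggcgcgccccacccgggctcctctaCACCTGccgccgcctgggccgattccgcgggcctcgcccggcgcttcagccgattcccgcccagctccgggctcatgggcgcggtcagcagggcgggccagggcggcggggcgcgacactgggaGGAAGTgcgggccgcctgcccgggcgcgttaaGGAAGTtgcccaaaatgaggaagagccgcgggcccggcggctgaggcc
LCK promoter 1, chr1:32251015-32251264: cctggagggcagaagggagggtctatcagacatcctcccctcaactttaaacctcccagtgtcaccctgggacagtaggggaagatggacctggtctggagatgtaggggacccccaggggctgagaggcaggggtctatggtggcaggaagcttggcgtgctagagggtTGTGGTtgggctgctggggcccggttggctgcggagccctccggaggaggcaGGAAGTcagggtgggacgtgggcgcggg
LCK promoter 2, chr1:32273871-32274120: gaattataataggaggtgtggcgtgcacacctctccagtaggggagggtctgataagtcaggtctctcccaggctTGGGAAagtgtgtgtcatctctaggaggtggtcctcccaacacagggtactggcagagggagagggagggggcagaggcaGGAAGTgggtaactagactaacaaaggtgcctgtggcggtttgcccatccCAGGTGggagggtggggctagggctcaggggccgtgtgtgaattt
ZAP70 promoter 1, chr2:97713326-97713575: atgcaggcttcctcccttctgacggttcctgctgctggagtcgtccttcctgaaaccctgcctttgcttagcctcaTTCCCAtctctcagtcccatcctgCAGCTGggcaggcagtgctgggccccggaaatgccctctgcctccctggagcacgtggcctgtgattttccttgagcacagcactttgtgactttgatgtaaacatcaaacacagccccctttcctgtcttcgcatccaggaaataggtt
PIK3CD promoter 1, chr1:9651481-9651730: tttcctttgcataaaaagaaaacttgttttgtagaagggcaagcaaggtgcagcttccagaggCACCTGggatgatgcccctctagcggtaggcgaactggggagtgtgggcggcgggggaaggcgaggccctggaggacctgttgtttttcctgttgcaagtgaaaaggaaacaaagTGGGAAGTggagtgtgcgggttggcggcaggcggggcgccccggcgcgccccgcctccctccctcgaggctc
SYK promoter 2 held GGAAGT at 2 places and CACCTG at 1. Over all 11 promoters, GGAAGT was found in 4, all of them printed here, and CAGCTG in 2, both of ZAP70. The printed promoters were picked for their matches, so their counts are not comparable with the shares over the table. A match describes letters only and is not evidence of a bound factor.

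Every kinase window held chromatin that was open in all 12 lists, the T-lineage kinases included. A region is called open in a list where the list has a peak there. In all, 17 of 66 regions (25.8%) were open in all 12 lists, against 16.5% of all regions of the series. By window the 17 regions were 5 of 17 in LYN, 3 of 12 in BLK, 4 of 6 in LCK, 2 of 14 in SYK, 2 of 8 in ZAP70 and 1 of 9 in PIK3CD. Of the rest, 10 were open in 1 list and 39 in 2 to 11. With all lists cut to the length of the shortest, 14 regions were open in all 12 lists, and the PIK3CD window then had none. The share of all regions at that length was not computed, so the 14 cannot be set against the 16.5%. The 17 regions had a median width of 846 bp, against 331 bp for the other 49. Such a difference was not particular to these loci, since the medians over all regions were 837 and 319 bp.

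Strength was described by a value deposited with each peak, taken to be its fold enrichment as inferred from the values alone. It is read here as signal over the background of the same library. It is not normalized between lists, so folds of different lists set side by side show no change in level. Each fold was therefore also given as a percentile among all peaks of its list. The 17 regions had mean percentiles from 35.0 (PIK3CD region 1) to 95.1 (LCK region 6), with a median of 69.7, against 71.2 for all regions open in all 12 lists. Regions are numbered along each window by coordinate.

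**Figure D1:**
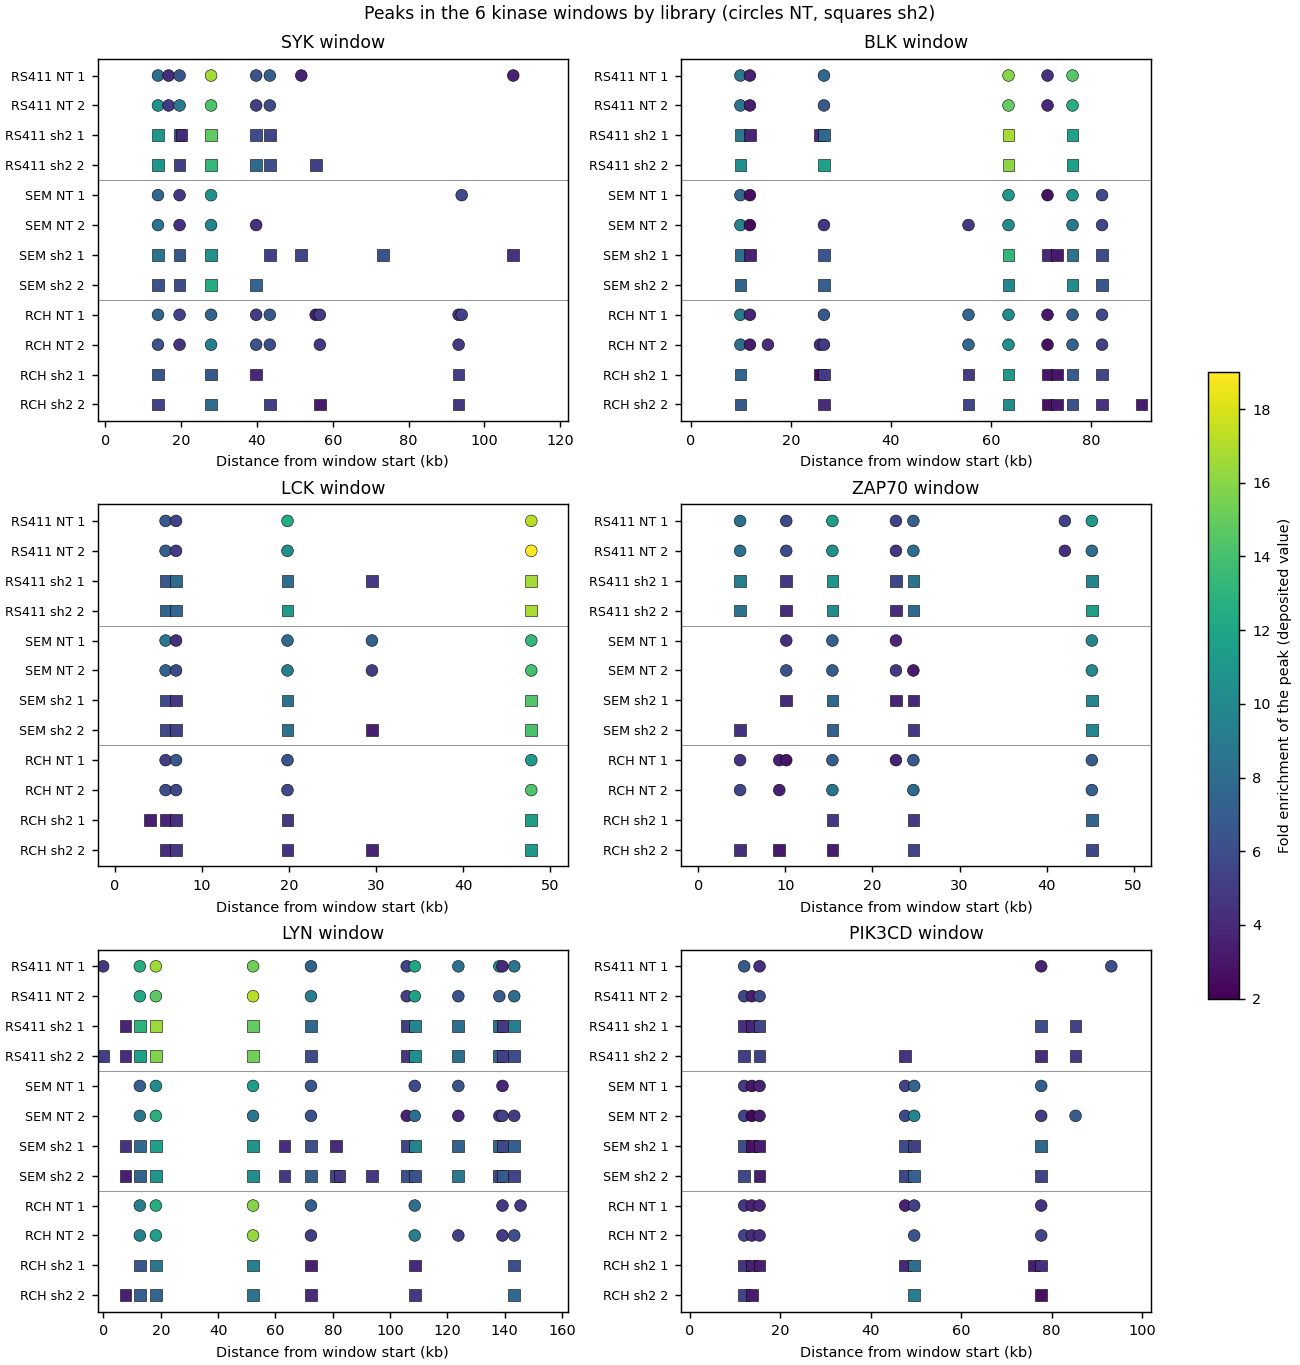
Peaks in the 6 kinase windows. Each row is 1 of 12 libraries, the x axis is the distance from the window start in kb, and circles are NT and squares sh2. Each marker is a region with a peak, and colour is its highest deposited value in that list, read as fold enrichment. Columns filled from top to bottom are the 17 regions open in all 12 lists, and the column near the end of the LCK window (LCK region 6) has folds of 11.2 to 18.9.

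LYN, the Src-family kinase that starts pre-B receptor signalling and also feeds inhibitory receptors, had the most regions. Its window spans 160 kb of chromosome 8, from 56780001 to 56940000, and the 17 regions there include 5 open in all 12 lists. The strongest were region 4 (56797959 to 56798654) and region 5 (56831919 to 56832572), with mean percentiles of 88.7 and 88.8. Region 4 had folds of 16.6 and 14.7 in RS411 NT and 16.5 and 15.8 in RS411 sh2. In SEM it had 10.3 and 12.8 with NT and 11.6 and 10.9 with sh2, and in RCH 12.5 and 11.5 with NT and 8.67 and 7.42 with sh2. Region 4 was thus among the stronger peaks of every list, with percentiles from 73.7 to 95.4. Region 5 had folds of 15.3 and 17.1 and then 14.9 and 15.3 in RS411 (NT, then sh2). Its folds were 11.4 and 8.70 and then 10.9 and 10.3 in SEM, and 15.9 and 16.2 and then 9.34 and 8.56 in RCH.

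Within a list these LYN regions can be set in order, since all come from the same library. The caller's settings are not given, so the background may still differ between regions of a list. Region 5 exceeded region 4 in all 4 RCH lists, by 1.08 to 1.41 times. In RS411 it did so in 1 of 4 lists, with ratios from 0.902 to 1.17, and in SEM in 1 of 4, with ratios from 0.681 to 1.10. The ratios of RCH overlap those of both other lines, and the pair was chosen after the values were seen, so no test is given. Region 7 (56851889 to 56852826) was weaker than regions 3, 4 and 5 in all 12 lists.

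**Figure D2:**
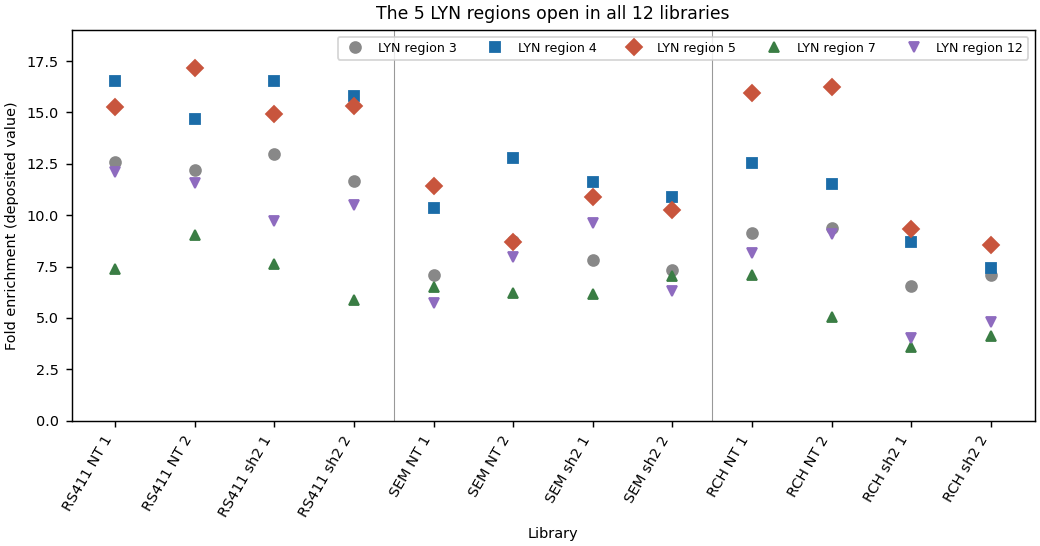
Deposited value, read as fold enrichment (y axis), of the 5 LYN regions open in all 12 libraries (x axis), 1 point per region and library. Region 5 lies above region 4 in all 4 RCH libraries and in 1 of 4 in each of the other lines.

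At the far end of the LYN window (higher coordinates), some regions were open less widely in RCH and others were not. Region 14 (56917957 to 56918268) was open in all 4 RS411 lists, with folds of 9.73, 6.86, 8.37 and 7.42. In SEM it was open in 3 of 4 lists, with 4.55 in NT library 2 and 7.78 and 5.56 in sh2, and in RCH in none. Region 11 (56885611 to 56885968) had the same pattern, with folds of 4.76 to 5.31 in RS411, 3.60 to 6.11 in 3 SEM lists, and no peak in RCH. Region 13 (56903478 to 56904063) was open in all RS411 and SEM lists and in 1 RCH list, NT library 2, at 5.32. These 3 regions were picked after their values were seen. In the same stretch, region 12 was open in all 12 lists, region 16 in 3 RCH lists at 5.99 to 7.83, and region 15 in both RCH NT lists. The RCH lists were among the shorter ones with 41594 to 57088 peaks, against 53837 to 84794 in the other lines. With all lists cut to their 41594 strongest peaks, region 14 remained in 4 RS411, 2 SEM and 0 RCH lists, whereas region 11 remained in 1 SEM list only.

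LYN in SEM also had the largest rise in open regions between NT and sh2 of any window and line, compared by their means. The SEM lists held 7 and 10 open LYN regions with NT and 13 and 15 with sh2, or 8.50 ± 2.12 and 14.0 ± 1.41 (SD, n = 2 libraries), and the libraries did not overlap. In RS411 they held 11 and 9 with NT and 11 and 12 with sh2, and in RCH 7 and 8 with NT and 6 and 7 with sh2, so that the libraries of NT and sh2 shared a value. Total peak number in SEM was higher with sh2 too, at 64200 and 62265 against 53837 and 55072, and the log2 ratio of LYN peak number in SEM was 0.74 as deposited, 0.58 with lists of equal length and 0.52 as a share of all peaks. Regions open in both sh2 libraries and no NT library of a line are called sh2-only, and NT-only in the reverse case. The sh2-only regions of SEM were LYN region 8 (folds 4.06 and 5.44), region 6 (4.31 and 4.81) and region 2 (4.65 and 3.54), with mean percentiles of 22.4, 18.7 and 12.4. These were weak peaks, and none of them remained sh2-only with SEM lists of equal length.

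LYN region 2 (56787559 to 56787830) was sh2-only in RS411 as well, with folds of 3.73 and 4.19. It was the only 1 of 66 regions that was sh2-only in at least 2 lines (1.52%), where 0.0902% of all regions were. RCH had a peak there in sh2 library 2 (3.48) and in no NT library. Its percentiles ran from 3.9 to 20.8 over the 5 lists that held it, so it lay near the lower end of each list. In RS411 it was still sh2-only with lists of equal length, but that cut fell mainly on the NT lists and could hardly change this call. No region of the windows was NT-only in 2 lines, against 1.08% of all regions.

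BLK encodes a Src-family kinase restricted largely to B-lineage cells. Its window (chromosome 8, 11340001 to 11430000) held 12 regions, and the leading one, meaning the highest by mean percentile among those open in all 12 lists, was region 7 (11403033 to 11403912) at 89.2. Region 7 had folds of 15.9, 14.9, 16.8 and 16.0 in RS411 (2 NT, then 2 sh2 libraries), of 11.0, 10.1, 13.2 and 9.96 in SEM, and of 10.1, 10.4, 11.1 and 10.2 in RCH. It was the highest BLK peak in 11 of 12 lists. Region 1 (11349350 to 11350463) and region 10 (11415803 to 11416727) were open in all 12 lists as well, at 69.7 and 76.0. Region 10 was above region 1 in all 4 RS411 lists and in 3 of 4 SEM lists, and below it in all 4 RCH lists, where its fold was 0.792 to 0.928 of that of region 1. The ratio was 1.13 to 1.66 in RS411, so RS411 and RCH did not overlap. This pair too was picked after the values were seen, and its background may likewise differ between the regions.

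RCH had the most open BLK regions, with 8 and 10 in NT and 9 and 9 in sh2, against 4 to 6 in the RS411 lists and 5 to 8 in the SEM lists. Some of those in RCH were at the bottom of their lists, as region 8 at percentiles of 0.1 to 1.1 and region 9 at 0.8 and 2.4. With all lists cut to equal length, regions 8 and 9 each remained in 1 RCH list. Regions 1, 5, 6, 7, 10 and 11 remained in all 4. The share of all peaks that lay on chromosome 8 was also highest in RCH, at 5.84% to 6.52% against 5.20% to 5.78% in the other lines, and its part in the BLK count was not tested. Region 6 (11395008 to 11395924) was open in all 4 RCH lists, at 7.51, 7.62, 5.04 and 5.51, in SEM NT library 2 at 4.88, and in no RS411 list. With all lists cut to equal length it remained in the same 4 RCH lists and 1 SEM list. Region 11 (11421911 to 11422410) separated RS411 from the other lines. It had folds of 5.79, 5.59, 5.86 and 6.60 in SEM and of 5.69, 5.28, 5.54 and 4.41 in RCH, and no peak in RS411. All 8 peaks remained after the cut to equal length.

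BLK also held 3 weak changes. Region 8 was NT-only in RS411 (4.41 and 3.97), region 2 was NT-only in RCH (3.80 and 3.23), and region 9 was sh2-only in RCH (2.87 and 3.10). Their mean percentiles were 14.4, 4.1 and 1.6, at the bottom of their lists, and none kept its class with lists of equal length.

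LCK, the Src-family kinase best known for starting T-cell receptor signalling, was open in every list. The window (chromosome 1, 32710001 to 32760000) held 6 regions, of which 4 were open in all 12 lists, and libraries had 4 or 5 open regions throughout. In RCH both NT libraries had 4 and both sh2 libraries 5, but the added region differed between the sh2 libraries (region 1 and region 5). Region 4 (32729284 to 32730249) had folds of 12.4, 10.4, 8.04 and 11.3 in RS411, 7.88, 9.22, 8.33 and 8.38 in SEM, and 6.49, 5.79, 4.85 and 4.64 in RCH. Its percentiles were lowest in RCH, at 35.6 to 55.6 against 58.4 to 84.1 in the other lines. Regions 2 and 3 (32715390 to 32716137 and 32716674 to 32717278) lay side by side at mean percentiles of 45.3 and 37.5. Region 6 (32757269 to 32758362) was the strongest of all 66 regions by mean percentile, with folds of 16.7 to 18.9 in RS411, 13.3 to 14.3 in SEM and 11.2 to 14.3 in RCH. It lies at the far end of the window, and the coding gene that follows LCK in RefSeq is HDAC1, a ubiquitous histone deacetylase gene. No hg19 annotation was used, so region 6 was not assigned to either gene and should not be read as LCK chromatin. Region 5 (32739303 to 32739794) was open in both SEM NT libraries at 7.22 and 5.17 and in 1 of 2 SEM sh2 libraries at 3.51. It was also open in RS411 sh2 library 1 at 4.97 and RCH sh2 library 2 at 3.70. No LCK region was NT-only or sh2-only in any line.

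SYK encodes the tyrosine kinase that binds the phosphorylated pre-B receptor. Its window (chromosome 9, 93550001 to 93670000) held 14 regions, and 2 were open in all 12 lists. The leading one, region 5 (93577533 to 93578229), had folds of 16.7, 14.2, 14.8 and 13.3 in RS411, 10.7, 9.63, 10.6 and 12.4 in SEM, and 7.45, 9.19, 6.64 and 7.93 in RCH. Its percentiles were 87.8 to 95.0 in RS411, 80.5 to 91.1 in SEM and 65.6 to 78.8 in RCH, so that RCH did not overlap the other lines. Percentiles from lists of different length do not measure a change. Region 1 (93563526 to 93564268) was open in all lists at percentiles of 48.3 to 77.9.

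SYK region 12 (93642979 to 93643372) was open in RCH alone, in all 4 lists, with folds of 4.58 and 4.77 with NT and 5.07 and 4.70 with sh2. It was the only 1 of 66 regions open in all lists of RCH and in no other list (1.52%, against 0.889% of all regions). No kinase region had this pattern for RS411 (0 of 66, against 2.03%) or for SEM (0 of 66, against 0.957%). With lists of equal length it was left in the 2 sh2 lists of RCH only, so its NT peaks were weaker than the cut.

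In RCH the SYK window had fewer open regions with sh2. The NT libraries had 9 and 7 and the sh2 libraries 4 and 5, or 8 ± 1.41 and 4.50 ± 0.707 (SD, n = 2 libraries), with no overlap. Peak number of the whole list was also lower with sh2, at 44244 and 41594 against 56511 and 57088. The log2 ratio of SYK peak number in RCH was -0.83 as deposited, -0.415 with lists of equal length and -0.42 as a share of all peaks. Only 1 SYK region was NT-only in RCH, region 3 (93569343 to 93569869), with folds of 5.36 and 4.57. This region was open in all RS411 lists (5.27 to 8.85) and all SEM lists (4.38 to 6.59). The other NT-only region was region 2 in RS411, at 4.15 and 4.80. With lists of equal length neither was NT-only. SEM went the other way in mean number, with 4 and 4 SYK regions with NT and 7 and 4 with sh2, and its libraries overlapped.

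ZAP70, the SYK relative used by the T-cell receptor, had 6 or 7 open regions in every RS411 list. Its window (chromosome 2, 98320001 to 98370000) held 8 regions. RS411 had 7 open in each NT list and 6 in each sh2 list, SEM had 4 or 5, and RCH had 7 and 5 with NT and 3 and 5 with sh2. Counted as peaks, RS411 had 8 in every list, and RCH had 8 and 6 with NT and 3 and 5 with sh2, a log2 ratio of -0.81 without overlap. That ratio was -0.17 with lists of equal length and -0.39 as a share of all peaks. In SEM it was 0 as deposited and -0.74 with lists of equal length. Region 4 (98334959 to 98335870) was open in all lists, with folds of 11.4, 10.6, 10.9 and 10.2 in RS411, 7.21, 6.94, 7.69 and 7.32 in SEM, and 7.01, 8.51, 4.79 and 3.33 in RCH. Its percentile in RCH sh2 library 2 was 5.1, far below the 38.3 of sh2 library 1 and the 61.6 and 74.5 of the NT libraries. Region 8 (98364836 to 98365625), the leading one at a mean percentile of 72.0, had folds of 7.99 to 11.5 in RS411, 9.78 to 10.0 in SEM and 5.67 to 7.40 in RCH. The coding gene after ZAP70 in RefSeq is TMEM131, and region 8 was not assigned to either gene.

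A pair of further ZAP70 regions, picked after their values were seen, was open in every RS411 list and in fewer SEM lists. Region 1 (98324565 to 98324950) had 8.19, 8.39, 9.26 and 8.57 in RS411, 1 SEM peak at 4.46 and 3 RCH peaks at 4.38 to 5.63. Region 6 (98344425 to 98345055) had 7.12 to 8.53 in RS411, 4.84 to 7.72 in RCH and 3.37 to 4.85 in 3 SEM lists. With lists of equal length, region 1 was open in 4 RS411, 0 SEM and 2 RCH lists, and region 6 in 4, 0 and 4. ZAP70 region 7 was NT-only in RS411 at 5.23 and 4.22, with a mean percentile of 23.5, and was not NT-only with lists of equal length.

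PIK3CD encodes the p110 delta catalytic subunit of PI3K, which acts below the pre-B receptor and cytokine receptors. Its window (chromosome 1, 9700001 to 9800000) held 1 region open in all 12 lists, region 1 (9711570 to 9712415), with folds of 4.38 to 6.73 and a mean percentile of 35.0. It was the highest region of the window in only 1 of 12 lists, and region 5 had a mean percentile of 61.3 over the 8 lists that held it. The gene model in RefSeq (GRCh38) is 101857 bp long, more than the 100000 bp of the window, so the window cannot cover the whole gene.

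PIK3CD region 5 (9749330 to 9749910) was open in SEM and RCH and not in RS411. It had folds of 7.47, 9.71, 5.30 and 7.23 in SEM and of 5.29, 6.48, 7.99 and 9.12 in RCH, with percentiles from 33.4 to 84.2, and no peak in any RS411 list. Together with BLK region 11 it made 2 of 66 regions open in all 8 lists of SEM and RCH and in no RS411 list (3.03%), where 0.355% of all regions were. The RS411 lists held 61551 to 84794 peaks and those of SEM and RCH 41594 to 64200, so that the lengths overlap. With all lists cut to equal length PIK3CD region 5 was open in 3 SEM, 4 RCH and 0 RS411 lists. The other pairs of lines had no such kinase region. That is 0 of 66 for RS411 and RCH without SEM, against 0.426% of all regions, and 0 of 66 for RS411 and SEM without RCH, against 1.44%.

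Peak number in the PIK3CD window moved in opposite directions in RS411 and SEM. RS411 had 5 and 3 peaks with NT and 7 and 7 with sh2, a log2 ratio of 0.81, and SEM had 7 and 8 with NT and 6 and 5 with sh2, a log2 ratio of -0.45. RCH had 6 and 5 with NT and 7 and 4 with sh2, a log2 ratio of 0. With lists of equal length the ratios were 1.58 in RS411, -0.70 in SEM and 1.32 in RCH, and as a share of all peaks 1.17, -0.66 and 0.39. Some regions hold more than 1 peak of a list. Counted as open regions, RS411 had 4 and 3 against 5 and 5, and SEM had 6 and 7 against 6 and 5, so the SEM libraries then shared a value. The sh2-only region of RS411 was region 8 (9785138 to 9785411), with folds of 5.33 and 4.84. It was also open in SEM NT library 2, at 6.92. With lists of equal length it remained sh2-only in RS411, where the cut fell mainly on the NT lists and could hardly change the call.

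**Figure D3:**
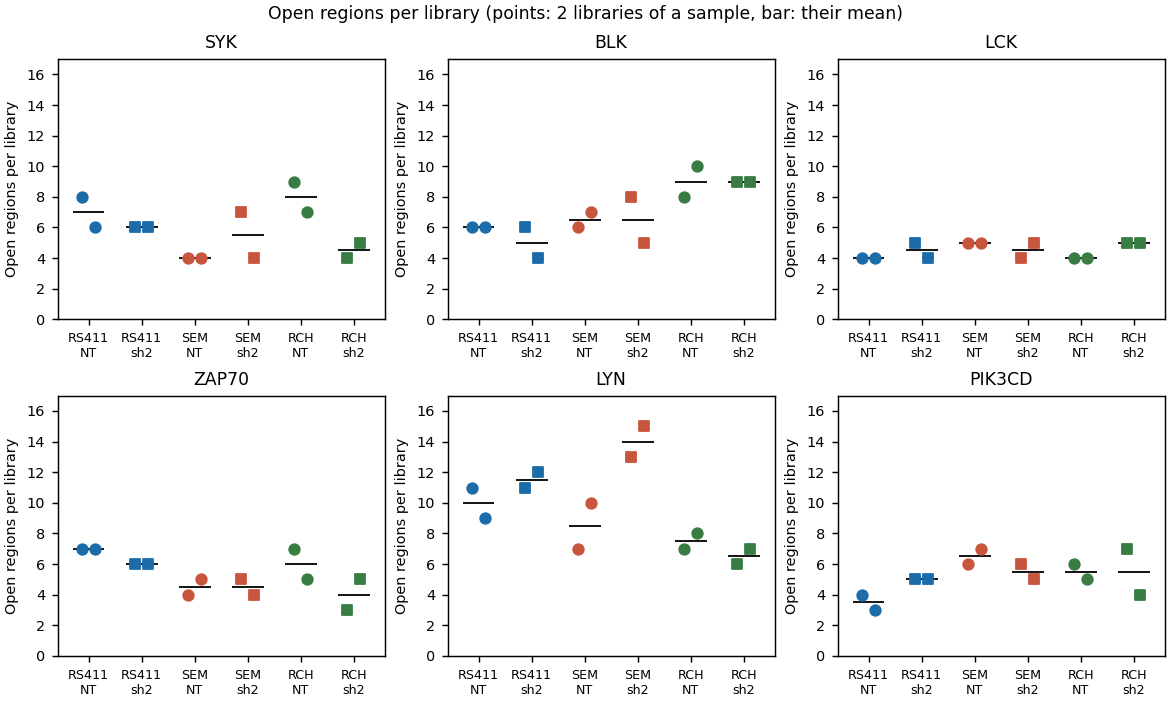
Open regions per library (y axis) in each window, by line and shRNA (x axis). Points are the 2 libraries of a sample and bars their mean. LYN in SEM (7 and 10 with NT, 13 and 15 with sh2) and SYK in RCH (9 and 7, then 4 and 5) are windows where NT and sh2 libraries did not overlap. The same holds for PIK3CD in RS411 (4 and 3, then 5 and 5), LCK in RCH (4 and 4, then 5 and 5) and ZAP70 in RS411 (7 and 7, then 6 and 6).

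Over the 6 windows together, peak number did not move in 1 direction with NSD2 knockdown. RS411 had 43 and 37 peaks with NT and 44 and 42 with sh2. SEM had 35 and 39 against 44 and 40, and RCH had 44 and 42 against 37 and 37. Expressed as sh2 over NT, the log2 ratios were 0.10 for RS411, 0.18 for SEM and -0.22 for RCH. They averaged 0.02 ± 0.21 (SD, n = 3 lines), and an exact sign-flip test over the lines, two-sided, gave p = 1.0. With 3 lines this test cannot go below 0.25. Only SEM and RCH had libraries that did not overlap, and they moved in opposite directions. Counted as open regions in place of peaks, the SEM libraries overlapped. As a share of all peaks of a list, the windows held 0.503 ± 0.0062 per 1000 peaks with NT and 0.689 ± 0.037 with sh2 in RS411 (SD, n = 2 libraries). In SEM these were 0.679 ± 0.041 and 0.664 ± 0.030, and in RCH 0.757 ± 0.030 and 0.863 ± 0.038. By this share the libraries of RS411 and RCH did not overlap (log2 ratios 0.45 and 0.19), and those of SEM did. Lists were shorter with sh2 in RS411 and RCH, and the part of list length in the share was not tested. The mean log2 ratio of the share was 0.20 ± 0.24 (n = 3 lines, exact sign-flip p = 0.5).

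Few kinase regions changed class with the knockdown, and most counts lay at or below those of all regions. In RS411, 3 of 48 regions were NT-only (6.25%, against 9.79% of all regions) and 2 of 48 sh2-only (4.17%, against 0.854%). In SEM, 0 of 51 were NT-only (against 2.59%) and 3 of 51 sh2-only (5.88%, against 7.69%). In RCH, 3 of 51 were NT-only (5.88%, against 10.6%) and 1 of 51 sh2-only (1.96%, against 1.90%). The exception by share was the sh2-only class of RS411, which consisted of LYN region 2 and PIK3CD region 8. The 12 class calls had mean percentiles from 1.6 to 30.9 with a median of 18.8, so that all of them rested on peaks in the lower part of their lists.

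Many regions differed between the libraries of a sample. Regions open in 1 of the 2 libraries of NT or of sh2 made up 13 of 48 in RS411 (27.1%, against 40.8% of all regions), 23 of 51 in SEM (45.1%, against 41.9%) and 21 of 51 in RCH (41.2%, against 49.7%). Regions open in all 4 lists of the line were 30 of 48 in RS411 (62.5%, against 48.5%), 25 of 51 in SEM (49.0%, against 47.8%) and 26 of 51 in RCH (51.0%, against 37.8%).

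**Figure D4:**
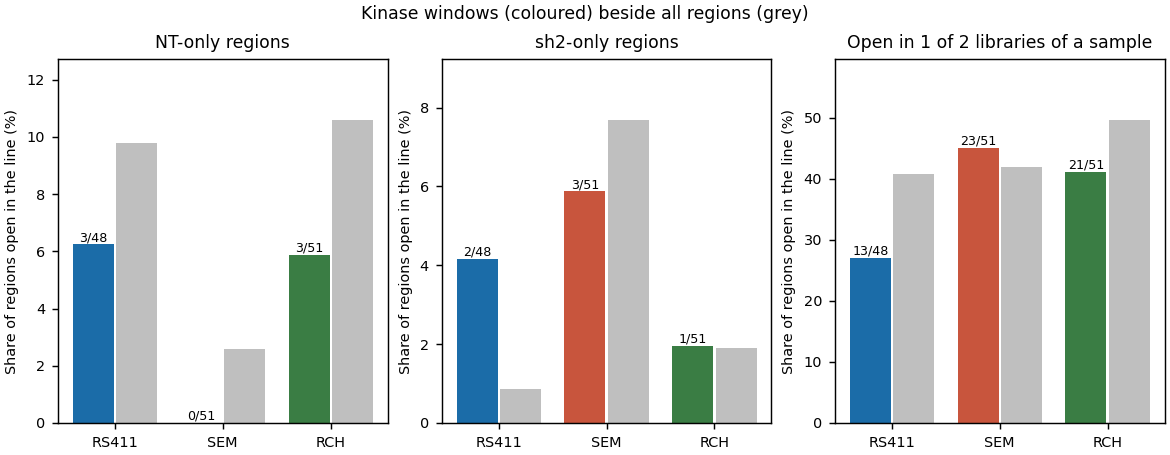
Share of regions (y axis, % of regions open in the line) that were NT-only, sh2-only or open in 1 of 2 libraries of a sample, by line (x axis). Coloured bars are the kinase windows, with counts above them, and grey bars all regions. Among the classes of change, the sh2-only class of RS411 exceeds its grey bar by the most. It rests on 2 of 48 regions, with mean percentiles of 7.6 and 24.0.

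The changes that outlasted a cut to equal list length were 3 of the 12. With each line's lists cut to the same number of strongest peaks, 11 class calls were made, and 3 of them were also made with the lists as deposited. The share of all regions called at these lengths was not computed, so the number of calls is not a result about the kinase regions. These were LYN region 2 and PIK3CD region 8, sh2-only in RS411, and LYN region 15 (56918910 to 56919435), NT-only in RCH with folds of 4.76 and 4.82. In RS411 the shortest list was an sh2 list (61551 peaks, the other 63392), so the cut fell mainly on NT (84794 and 74244). Both RS411 calls had no NT peak as deposited, so this cut could hardly change them. In RCH the NT lists (56511 and 57088) were cut to 41594, so the call of LYN region 15 was exposed to the cut. LYN region 15 had peaks in all 4 SEM lists (3.81 to 6.67) and in 3 of 4 RS411 lists, and so was not NT-only there. With equal lists it was sh2-only in RS411, where a weak peak of NT library 1 (3.97) fell out, the opposite of RCH.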

How the data were processed

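Peaks came from 12 lists, 2 for each of 6 ATAC-seq samples. Per the submitters' processing notes, Bowtie2 and MACS2 were used on hg19. Their versions and settings, and any duplicate removal, offset shift for the transposase or pooling, are not given in the sources used. Column 5 of the deposited lists was taken to be a ratio, the fold of a peak over the caller's background, as inferred from its values alone. Read depth is unknown, so no depth-based interval or floor is given. Lists held 41594 to 84794 peaks on chromosomes 1 to 22 and X, which left out 140 peaks.

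Peaks of all lists that touch or overlap were joined into regions, and a region overlapping a window by at least 1 bp was a member. A list was open in a region with any peak there, and its highest fold was used. In 33 cases a list had more than 1 peak in a member region. All 6 windows were named, with their leading regions, all class changes and all line-specific regions. Members, lists and motifs were chosen with earlier results of these data known. Lineage markers and other pathway genes, which need an hg19 annotation, were not analysed here. The class calls were tested on simulated lists that had no differences between the libraries of a sample. That checks the calling steps only and does not measure how reliable the calls are. Promoters came from the RefSeq table (GRCh38.p14). Lines pair the samples, as their titles name them, and the test over lines was an exact sign-flip test. Alternatives were lists of equal length, only peaks above the pooled median fold (6.37), regions inside the window, windows widened by 10% on each side, coverage of 50% of a region, no pairing, and each library left out. Python 3.11.15, numpy 2.4.6, pandas 2.3.3 and matplotlib 3.10.9 were used.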

Additional observations from a re-analysis of the deposited data

Results flagged for a closer look

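In the PIK3CD window, both sh2 libraries of RS411 had more peaks than both NT libraries (log2 ratio 0.81), and both sh2 libraries of SEM had fewer (log2 ratio -0.45). The lines thus moved in opposite directions, and this difference was not tested. With lists of equal length the ratios were 1.58 in RS411 and -0.70 in SEM, and RCH went from 0 to 1.32.

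Over the 6 windows together, SEM had more peaks with sh2 in both libraries (log2 ratio 0.18) and RCH fewer (log2 ratio -0.22), and this difference was not tested either. Total peak number moved the same way, by 0.22 in SEM and -0.40 in RCH on the log2 scale. As a share of all peaks both directions turned, to -0.03 in SEM, where the libraries overlap, and to 0.19 in RCH, where they do not.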

How the results depend on the processing

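With every list of a line cut to equal length, the NT-only count was 0 in RS411, 4 in SEM and 1 in RCH. The sh2-only count was 4, 0 and 2, and the cause was not tested. Shares of all regions were not computed at this or the other settings below, so these counts are not a result about the kinase regions. Open in a line alone means here open in all lists of that line and in no other list. By that rule, over lists cut to one length for the whole series, 0 regions were open in RCH alone. With only peaks above the pooled median fold, the NT-only count was 1 in RS411, 1 in SEM and 4 in RCH. The sh2-only count was then 1, 1 and 0 in RS411, SEM and RCH. At that setting 7 regions were open in all 12 lists, and 1 and 0 were open in RS411 alone and in RCH alone. With 50% coverage, 4 regions were NT-only in SEM, 7 were open in all 12 lists and 2 in RCH alone. Leaving out 1 library gave 3 to 6 NT-only and 2 to 5 sh2-only regions in RS411, 1 to 4 and 3 to 8 in SEM, 5 to 8 and 1 to 4 in RCH, and 1 to 3 regions open in RCH alone. Leaving out a library can only loosen these rules, so no count could fall below that with all lists. The higher counts are therefore not a check of the calls. By library left out, RS411 had 6 NT-only regions without NT 2, and 4, 4 and 5 sh2-only without NT 1, sh2 1 and sh2 2. SEM had 2, 1, 4 and 1 NT-only without NT 1, NT 2, sh2 1 and sh2 2, and 8, 6 and 8 sh2-only without NT 2, sh2 1 and sh2 2. RCH had 5, 8, 5 and 7 NT-only without NT 1, NT 2, sh2 1 and sh2 2, and 2, 4 and 3 sh2-only without NT 2, sh2 1 and sh2 2. Without SEM NT 2 and RCH sh2 1, 2 and 3 regions were open in RCH alone. The mean log2 ratio of peak number (0.0235) turned to -0.1873 above the pooled median fold and to -0.0019 in widened windows, and ran from -0.0113 to 0.061 with 1 library left out (below 0 without RS411 NT 2 or, at -0.0019, SEM NT 1), each within 1 SD of the lines. It was 0.1612 with lists of equal length (exact sign-flip p = 0.5) and 0.0235 without pairing. No paired analysis by replicate number was possible because each line and shRNA has 1 sample. Regions inside the window and regions formed within a line, the latter chosen after seeing the data, kept the class counts within 1.5 times.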
